A study of Mus musculus with 12 samples.

Results

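Lcn2 and Havcr1, the genes whose transcripts and proteins serve as markers of kidney tubule injury, were followed on every array of a mouse kidney study of methylmalonic acidemia. They were taken by symbol from the array's annotation. Each had 1 probe set that named it alone and none that named it together with another gene, so they made 2 of the 19934 genes measured. RNA from whole kidney of female C57BL/6 mice was hybridised to 1 array per mouse, 12 arrays in all, after 2 months on a diet high in protein. The 4 mutant mice (Mut-/-) lacked functional Mmut, the gene of methylmalonyl-CoA mutase, and carried TgINS-Alb-Mut, a transgene that expresses the enzyme from the promoter of albumin, a gene of liver cells. The other groups were 4 heterozygotes (Mut+/-) and 4 wild-type mice (Mut+/+). The labels name the transgene for the mutants only and give no ages.

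Lcn2 encodes neutrophil gelatinase-associated lipocalin, a small secreted protein that binds bacterial siderophores and so withholds iron. Neutrophils store it in granules, and after injury it is made by tubule cells, chiefly of the distal nephron, and appears in urine. Havcr1 encodes kidney injury molecule 1 (TIM-1), a membrane receptor for phosphatidylserine that injured proximal tubule cells put on their surface and use to take up dying neighbours. Its outer part is shed into urine, and healthy tubules make little of it. In blood-derived cells the same receptor is carried by some T and B cells.

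The stretches just before the annotated starts are shown because both genes were high in mutants and respond to inflammatory and injury signals. They are RefSeq sequences of build GRCm38.p6, 5′ to 3′ on the strand of the gene. Capitals mark matches to the short patterns searched on both strands, TTGCNNAA for C/EBP factors, GGGNNNNNCC for NF-kappa-B, TTCNNNGAA for STAT factors and TATAAA for the TATA box.
Lcn2, 250 bases before its start, chr2:32387740-32387989, minus strand: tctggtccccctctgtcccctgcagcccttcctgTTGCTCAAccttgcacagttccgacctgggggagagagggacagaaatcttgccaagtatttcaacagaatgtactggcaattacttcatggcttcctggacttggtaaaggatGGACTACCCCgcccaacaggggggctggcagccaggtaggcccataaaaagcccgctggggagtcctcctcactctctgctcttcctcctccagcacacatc
Havcr1, 250 bases before the second of its 3 annotated starts, chr11:46750261-46750510, plus strand: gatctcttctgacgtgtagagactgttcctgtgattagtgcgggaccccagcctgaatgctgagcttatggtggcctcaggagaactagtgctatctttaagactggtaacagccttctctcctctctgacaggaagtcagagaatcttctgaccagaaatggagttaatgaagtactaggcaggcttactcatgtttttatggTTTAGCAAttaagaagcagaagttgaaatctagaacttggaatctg
The Lcn2 stretch held the C/EBP letters TTGCTCAA from -216 to -209 and the NF-kappa-B letters, on the other strand, as GGACTACCCC from -102 to -93. The Havcr1 stretch held the C/EBP letters, on the other strand, as TTTAGCAA from -46 to -39, and the stretches at its other 2 starts held none of the 4 patterns. Of 32851 stretches of this length before annotated mouse starts, 9.56% held the C/EBP pattern, 45.8% the NF-kappa-B pattern, 7.02% the STAT pattern and 12.4% the TATA pattern. A match is a run of letters and says nothing of binding.

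Values are log2 expression after robust multi-array averaging (RMA), and array medians lay between 7.17 and 7.23. Mmut itself averaged 8.35 ± 0.12 in mutants, 9.92 ± 0.04 in heterozygotes and 10.53 ± 0.06 in wild-type mice (SD, n = 4 each), and the mutants were 4.52-fold below wild type. The genotypes did not overlap in it. No source used here places its probes relative to the disrupted part of the gene. Mutant replicate 3 stood farthest from the other arrays on the first principal component, at -31.0 against -13.9 to -6.1 in the other mutants.

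Lcn2 was high in every mutant, but to very different degrees. Its level was 8.35, 11.29, 11.33 and 9.69 in mutant replicates 1 to 4, against 8.31, 7.81, 7.76 and 7.95 in the heterozygotes and 7.30, 7.01, 7.38 and 7.16 in the wild-type mice. Mutant replicates 2 and 3 stood far above all other arrays, and mutant replicate 1 was close to the highest heterozygote. Relative to the wild-type mean the 4 mutants were 2.20-fold, 16.9-fold, 17.3-fold and 5.58-fold higher.

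The group means of Lcn2 were 10.16 ± 1.43 in mutants, 7.96 ± 0.25 in heterozygotes and 7.21 ± 0.16 in wild-type mice (SD, n = 4 each). Mutants exceeded wild type 7.73-fold (log2 difference 2.95, SE 0.49, 95% interval 1.90 to 4.00, limma adjusted p = 0.00272), the second largest rise of all genes. The call was kept without any 1 array, with differences of 2.56 to 3.56. Mutants exceeded heterozygotes 4.61-fold (log2 difference 2.21, SE 0.49, 95% interval 1.15 to 3.26, limma adjusted p = 0.0310), and the lowest mutant lay 0.0437 above the highest heterozygote. All 4 mutants were thus above all 4 heterozygotes, an order seen in 4.04% of all genes. That second call ended without mutant replicate 2 or 3, any 1 heterozygote or wild type replicate 2 (adjusted p up to 0.0819), with differences of 1.82 to 2.81, and in a fit of these genotypes alone (adjusted p = 0.123).

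**Figure D1:**
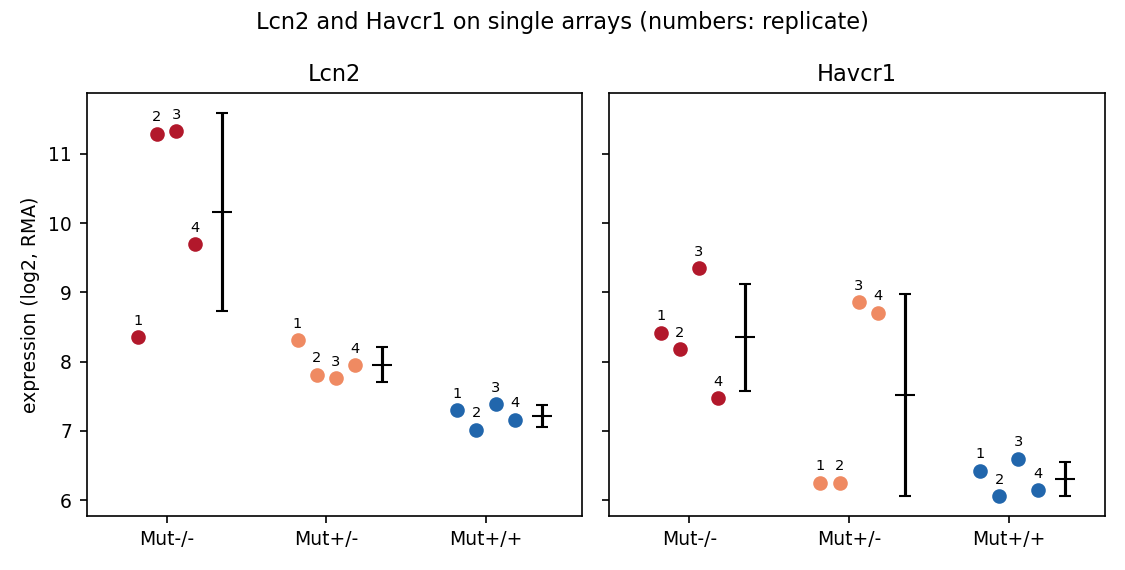
Expression (log2, RMA) of Lcn2 (left) and Havcr1 (right) on each of the 12 arrays, numbered by replicate, with the mean and SD of each genotype as bars. Mutant replicates 2 and 3 reach 11.29 and 11.33 for Lcn2, while heterozygote replicates 3 and 4 reach 8.86 and 8.70 for Havcr1, above 3 of the 4 mutants.

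Havcr1 was above every wild-type mouse in all mutants and in some heterozygotes. Its level was 8.41, 8.18, 9.35 and 7.47 in mutant replicates 1 to 4, against 6.25, 6.25, 8.86 and 8.70 in the heterozygotes and 6.42, 6.06, 6.60 and 6.15 in the wild-type mice. Among all 12 arrays heterozygote replicates 3 and 4 were exceeded by mutant replicate 3 alone. Heterozygote replicates 1 and 2 stood within the wild-type range.

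Group means of Havcr1 were 8.35 ± 0.77 in mutants, 7.52 ± 1.46 in heterozygotes and 6.31 ± 0.25 in wild-type mice (SD, n = 4 each). Mutants exceeded wild type 4.13-fold (log2 difference 2.05, SE 0.56, 95% interval 0.84 to 3.25, limma adjusted p = 0.0359), the ninth largest rise of all genes. That call ended without mutant replicate 1, 2 or 3 or any 1 wild-type array (adjusted p up to 0.0970), although the difference stayed between 1.71 and 2.34. Mutants and heterozygotes overlapped (log2 difference 0.84, 95% interval -0.37 to 2.04, adjusted p = 0.549). The difference was 0.50 without mutant replicate 3, 0.41 or 0.42 without heterozygote replicate 2 or 1, 1.28 without heterozygote replicate 3 and 0.29 with array weights. A difference of 4-fold between them was within the interval.

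Both genes were called higher in mutants than in wild type, in a comparison that called 9.66% of all genes, 2.96% as higher. In both, all 4 mutants lay above all 4 wild-type mice, which held for 5.35% of all genes. Against heterozygotes only Lcn2 was called, where 2.54% of all genes were called, 1.07% as higher. Exact two-sided permutation of the arrays, unadjusted, gave Lcn2 p = 0.0286 in all 3 comparisons and Havcr1 p = 0.0286 for mutants against wild type, the smallest value that 70 regroupings of 4 and 4 arrays allow, and p = 0.343 for Havcr1 in mutants against heterozygotes. In whole tissue, more cells that express a gene and more of its RNA per cell cannot be told apart.

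Heterozygotes differed from wild type in another way for each gene. For Lcn2 all 4 heterozygotes stood above all 4 wild-type mice, by at least 0.38, an order seen in 3.18% of all genes, and the individual heterozygotes were 2.13-fold, 1.51-fold, 1.46-fold and 1.67-fold above the wild-type mean. The mean difference was 1.67-fold (log2 0.74, SE 0.49, 95% interval -0.31 to 1.80, adjusted p = 0.593), where 0.135% of all genes were called, 0.0652% as higher. With the mutants left out of the fit the SE was 0.113 and Lcn2 was called (adjusted p = 0.0201). For Havcr1 the mean difference was 2.31-fold (log2 1.21, 95% interval 0.00 to 2.42, adjusted p = 0.442, exact permutation p = 0.257), with heterozygote replicates 3 and 4 at 5.87-fold and 5.27-fold and replicates 1 and 2 at 0.963-fold and 0.960-fold of the wild-type mean. Its log2 difference was 0.76 without heterozygote replicate 3, and 1.63 without heterozygote replicate 1 or 2.

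Lcn2 among mutants and Havcr1 among heterozygotes were some of the most variable genes on the array. The SD of Lcn2 among mutants ranked 29 of 19934 genes from the top, with a 7.87-fold range between the lowest and the highest mutant. The SD of Havcr1 among heterozygotes was the fifth largest of all genes, with a 6.11-fold range. Mutants held 96.0% of the squared deviation of Lcn2 from its genotype means. For Havcr1 heterozygotes held 76.4% of it and mutants 21.4%.

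The markers did not rank the mice alike. Mutant replicate 3 was the highest of all 12 arrays in both. Mutant replicate 1 was the lowest mutant in Lcn2 and the second highest in Havcr1, and mutant replicate 4 was the lowest mutant in Havcr1. Deviations from the genotype mean had the same sign for both genes in 2 of 4 mutants, 1 of 4 heterozygotes and 4 of 4 wild-type mice.

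Over 12 arrays the deviations of the markers from their genotype means correlated at r = 0.12, a description in which arrays of a genotype share its mean. Over the 8 control arrays, which pool heterozygotes and wild type, Pearson's r was 0.385 (exact permutation p = 0.317) and Spearman's rho 0.5 (exact permutation p = 0.216), with p = 0.317 for both when adjusted over the 2 measures. Without the 2 arrays farthest from the median of Lcn2, heterozygote replicate 1 and wild type replicate 2, r was 0.696 over 6 arrays. Leaving out single arrays gave r from 0.24 (without heterozygote replicate 4) to 0.73 (without heterozygote replicate 1). The 4 heterozygotes and 4 wild-type mice are too few for a correlation within a genotype.

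The log2 change of Lcn2 was larger than that of Havcr1 by 0.91 in mutants against wild type (exact permutation p = 0.171) and by 1.37 in mutants against heterozygotes (exact permutation p = 0.2), and in heterozygotes against wild type it differed by -0.47 (exact permutation p = 0.543). Adjusted over the 3 comparisons these were 0.3, 0.3 and 0.543, so no comparison separated the markers. Leaving out single arrays moved the first difference to between 0.47 (without mutant replicate 2) and 1.53 (without mutant replicate 1). It moved the second to between 0.86 (without heterozygote replicate 3) and 2.00 (without mutant replicate 1), with 0.94 without mutant replicate 2. The last difference was -1.002 without heterozygote replicate 1, -0.84 without replicate 2 and -0.07 without replicate 4, and it turned to 0.0479 without heterozygote replicate 3.

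**Figure D2:**
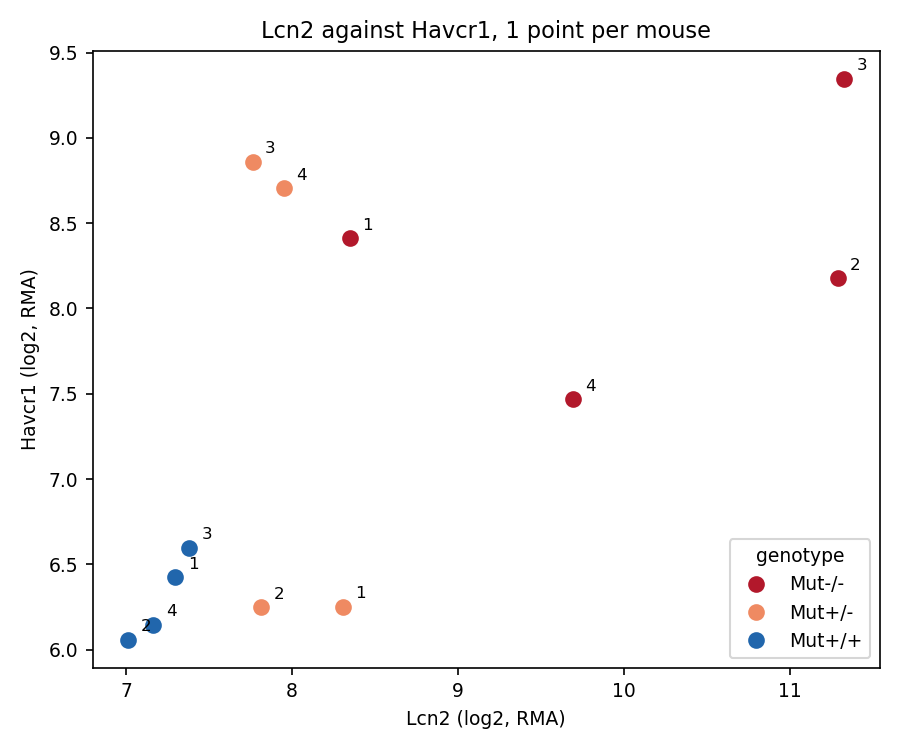
Lcn2 (x axis) against Havcr1 (y axis), both log2 RMA expression, 1 point per array, coloured by genotype and numbered by replicate. Mutant replicate 3 is highest in both, at 11.33 and 9.35, while heterozygote replicates 3 and 4 are high in Havcr1 alone, at 8.86 and 8.70.

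Genes that followed the markers were sought among the 621 genes with a mean of at least 6 in some genotype and a range of at least 1 (log2) over the 12 arrays. A gene could meet either limit through the mutants alone. Likeness was Pearson's r over the 12 arrays, which contains the genotype difference, or r of the deviations from genotype means, which does not. Arrays within a genotype share its breeding and handling, and r is given as a description. Mutants held 96.0% of the squared deviation of Lcn2 from its genotype means, so r of deviations with Lcn2 rests mainly on the mutants. For Havcr1 heterozygotes held 76.4% of it. A gene picked by r over 12 arrays tends to differ in mutants because the marker does. Counts of calls among such genes are therefore no separate finding. With Lcn2, 7 genes reached r of 0.9 over 12 arrays and 2 did so in deviations, against 0 and 0 with Havcr1. Neither marker was among the closest genes of the other. Their r was 0.61 over 12 arrays, where Havcr1 took rank 146 for Lcn2, and Lcn2 took rank 56 for Havcr1, and by r of deviations the ranks were 258 and 217.

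Npy6r, a receptor gene of the neuropeptide Y family, came closest to Lcn2 (r = 0.98 over 12 arrays, 0.96 in deviations). Its level was 6.04, 7.28, 7.49 and 6.38 in mutant replicates 1 to 4, against 5.27 to 5.71 in heterozygotes and 5.23 to 5.53 in wild-type mice. Lrg1, an acute-phase glycoprotein gene, was next (r = 0.94 and 0.93), with 7.14, 7.95, 7.98 and 7.27 in mutants, against 6.96 to 7.11 in heterozygotes and 6.97 to 7.06 in wild-type mice. In both, mutant replicates 2 and 3 were the highest arrays, as for Lcn2.

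The other genes with the highest r over 12 arrays were D17H6S56E-5 (0.91), the carbonyl reductase gene Cbr3 (0.91), the acyl-CoA thioesterase gene Acot1 (0.91), the lysosomal membrane gene Cd68 of macrophages (0.90), the guidance cue gene Sema3c (0.90) and the epoxide hydrolase gene Ephx1 (0.90). Of these 8 genes, picked by an r that contains the genotype difference, 7 rose in mutants against wild type. The rises ran from 0.57 for Lrg1 to 1.44 for Npy6r on the log2 scale. Ephx1 did not pass (log2 difference 0.49, adjusted p = 0.0768). The call of Lrg1 ended without mutant replicate 2 or 3 or any 1 wild-type array, and that of Cd68 without mutant replicate 2, 3 or 4 or wild type replicate 2, 3 or 4. Ephx1 was called without mutant replicate 1 or 4.

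In deviations from genotype means Lcn2 was also followed by Eda2r, a receptor gene of the tumour necrosis factor family and a target of p53 (r = 0.90), and Phlda3, another p53 target (r = 0.87). Eda2r stood at 6.66 and 6.63 in mutant replicates 2 and 3 and at 5.56 and 5.50 in mutant replicates 1 and 4, against 5.58 to 5.95 in heterozygotes and 5.54 to 5.79 in wild-type mice. Phlda3 stood at 8.95 and 8.76 in mutant replicates 2 and 3 and at 7.87 and 7.90 in mutant replicates 1 and 4, against 7.87 to 8.06 in heterozygotes and 7.83 to 8.28 in wild-type mice. Neither passed the test of mutants against wild type (adjusted p = 0.258 and 0.311). In both, mutant replicates 2 and 3 were above all other arrays. Mutants held 96.0% of the squared deviation of Lcn2, so these r rest mainly on the mutants and say little of the other genotypes.

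Kif23, a mitotic kinesin gene, followed Lcn2 in deviations as well (r = 0.86, and 0.57 without the array that mattered most), while it fell in mutants against wild type by 0.85 on the log2 scale (adjusted p = 0.00014). Its r over 12 arrays was accordingly negative, at -0.61.

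A gene model that the naming rule passes over had the lowest r with Lcn2 over 12 arrays (-0.98). Among named genes the lowest r were those of the carnitine and organic cation transporter gene Slc22a4 (-0.95), the acetylcholine receptor subunit gene Chrna4 (-0.95), Kap, an androgen-regulated protein of the proximal tubule (-0.95), the deiodinase gene Dio1 (-0.95) and the growth factor gene Igf2 (-0.94). Kap stood at 11.44, 9.87, 9.75 and 11.42 in mutant replicates 1 to 4, against 12.93 to 13.27 in heterozygotes and 13.23 to 13.31 in wild-type mice. Igf2 stood at 9.97, 7.85, 7.95 and 10.08 in mutants, against 11.17 to 11.44 in heterozygotes and 11.11 to 11.30 in wild-type mice. All 5, picked by the same r over 12 arrays, fell in mutants against wild type, with log2 differences from -0.70 for Slc22a4 to -2.65 for Kap. The mutants lowest in Kap and Igf2 were replicates 2 and 3.

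**Figure D3:**
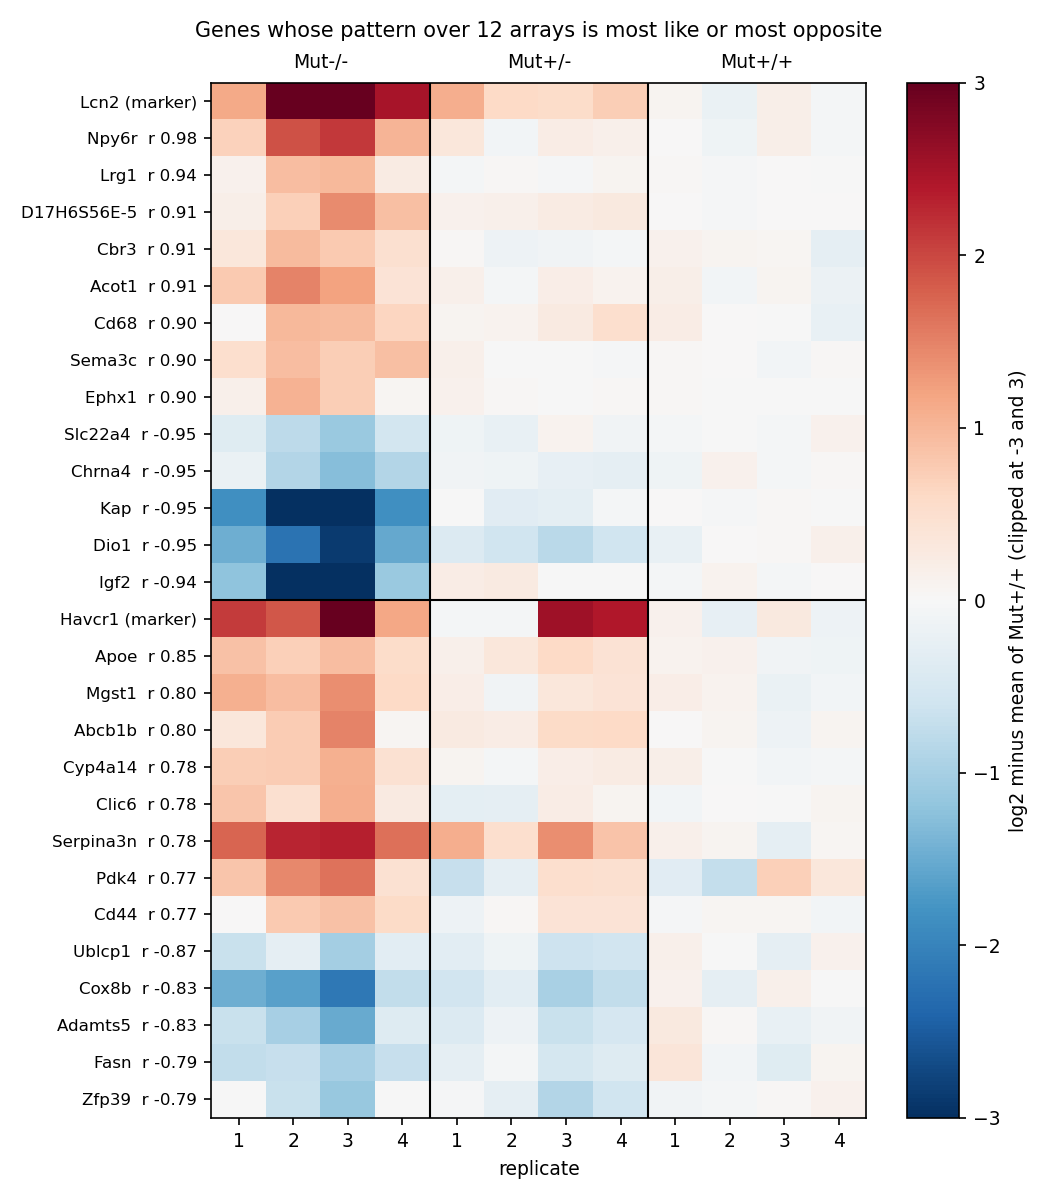
Log2 level minus the wild-type mean on the 12 arrays (columns, by genotype and replicate) for Lcn2 (upper block) and Havcr1 (lower block) with the 8 genes most like and the 5 named genes most opposite over 12 arrays, with r beside the name. Colours are clipped at -3 and 3. Mutant replicates 2 and 3 carry the deepest colours with Lcn2, and heterozygote replicates 3 and 4 are coloured with Havcr1.

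Havcr1 was followed less closely. The highest r over 12 arrays was that of the apolipoprotein gene Apoe (0.85), with 12.15, 11.98, 12.20 and 11.83 in mutants, 11.42, 11.61, 11.86 and 11.72 in heterozygotes and 11.38, 11.41, 11.18 and 11.14 in wild-type mice. Heterozygote replicates 3 and 4 were the highest heterozygotes in Apoe, as in Havcr1. Then came the glutathione transferase gene Mgst1 (0.80), the drug efflux pump gene Abcb1b (0.80), the fatty acid hydroxylase gene Cyp4a14 (0.78), the chloride channel gene Clic6 (0.78), the acute-phase protease inhibitor gene Serpina3n (0.78), the pyruvate dehydrogenase kinase gene Pdk4 (0.77) and the hyaluronan receptor gene Cd44 (0.77).

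Of these 8 genes, picked by an r that contains the genotype difference, 6 rose in mutants against wild type. The rises ran from 0.56 for Cd44 to 2.01 for Serpina3n on the log2 scale. Abcb1b (log2 difference 0.66, adjusted p = 0.0801) and Pdk4 (log2 difference 1.09, adjusted p = 0.0653) did not pass. Abcb1b was called without mutant replicate 4, and Pdk4 without mutant replicate 4 or wild type replicate 3. The call of Cd44 held without mutant replicate 1 or heterozygote replicate 1 and ended without any other single array (adjusted p up to 0.124). None of the 8 was called between heterozygotes and wild type, where 0.135% of all genes were called. The lowest r were those of the phosphatase gene Ublcp1 (-0.87), the cytochrome c oxidase subunit gene Cox8b (-0.83), the aggrecan-cleaving protease gene Adamts5 (-0.83), the fatty acid synthase gene Fasn (-0.79) and the zinc finger gene Zfp39 (-0.79). The first 4 fell in mutants against wild type, and Zfp39 was not called (log2 difference -0.45, adjusted p = 0.239). The call of Ublcp1 ended without mutant replicate 1 or 3, heterozygote replicate 1 or wild type replicate 1, 2 or 4.

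In deviations from genotype means Clic6 led (r = 0.84), with 6.86, 6.52, 7.11 and 6.30 in mutants, 5.73, 5.77, 6.26 and 6.11 in heterozygotes and 5.96 to 6.11 in wild-type mice. The order of its mutants and the pair of high heterozygotes were those of Havcr1. Next came the tyrosine catabolism gene Hpd (0.76), Pdk4 (0.73), the imprinted zinc finger gene Zim1 (0.73) and Apoe (0.72). Hpd and Zim1 were not called between mutants and wild type (adjusted p = 0.626 and 0.864).

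Genes on the chromosome of Havcr1 were frequent among those most tied to it, which was noticed after the values were seen. Of the 25 genes with the largest absolute r of deviations, 4 lay on chromosome 11 (16%), against 6.29% of the 620 other genes considered. By r over 12 arrays it was 6 of 25 (24%). The most common other chromosome held 5 of 25 by either measure, so chromosome 11 came first only by r over 12 arrays. For Lcn2, on chromosome 2, its own chromosome held 1 of 25 (4%), against 5.48%. The 4 by deviations ran opposite to Havcr1: Vstm2a (-0.84), Pttg1 (-0.81), Ublcp1 and Zfp39. Counted in measured genes from Havcr1, with the sign for the side, they lay at -148, -26, -17 and 165. Slfn5, Pctp and Fasn, counted by r over 12 arrays, lay farther off, at 625, 724 and 1293. Pttg1, the securin gene, 26 measured genes away, stood at 9.82, 10.20, 8.11 and 10.29 in mutants, 10.34, 10.21, 8.02 and 9.62 in heterozygotes and 10.19 to 10.30 in wild-type mice, so the 4 arrays highest in Havcr1 were the 4 lowest in Pttg1.

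The closest neighbours of Havcr1 did not share its pattern. Over the 20 nearest measured genes, 10 on each side, r of deviations ran from -0.46 for Cyfip2 to 0.44 for Snord95. They include the genes of its own family, Timd2 and Timd4 on either side and Havcr2, which encodes TIM-3. Among family members and the proteases that shed the receptor, Havcr2 (log2 difference of mutants and wild type -0.04, adjusted p = 0.645), Timd4 (0.02, adjusted p = 0.874) and Timd2 (0.30, adjusted p = 0.209) were not called, although Timd2 was without mutant replicate 3. The sheddase gene Adam10 fell 1.18-fold (adjusted p = 0.00891), with 9.04 to 9.12 in mutants, 9.12 to 9.15 in heterozygotes and 9.23 to 9.44 in wild-type mice.

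Genes of the machinery that takes up and digests dying cells, which Havcr1 serves, were called about as often as all genes (9.66%). Of 21 measured, 0 rose and 2 fell in mutants against wild type, where 2.96% of all genes rose and 6.69% fell by limma at an adjusted p under 0.05, and 8 of the 21 were higher (1 at an unadjusted p under 0.05, and a median log2 difference of -0.05, against 0.00 over all genes, of which 51.4% were higher). The fallen genes were Cd36, a scavenger receptor, 1.55-fold lower (9.69, 10.10, 9.51 and 9.70 in mutants, against 10.17 to 10.39 in heterozygotes and 10.23 to 10.50 in wild-type mice), and the bridging ligand gene Gas6, 1.21-fold lower. The call of Gas6 ended without mutant replicate 3 or 4, heterozygote replicate 3 or any 1 wild-type array. Without mutant replicate 1 the list held 4 called genes, and without heterozygote replicate 3 or wild type replicate 2, 3 or 4 it held 1. A single array stood out in Scarb1, a member named after its values were seen. Scarb1 was at 11.22 in mutant replicate 3, the array highest in both markers, and 8.51 to 8.62 in the other mutants. It ran from 8.48 to 8.68 in heterozygotes and from 8.61 to 8.74 in wild-type mice.

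Most genes in a list of signals that induce Lcn2 and of their common targets had higher means in mutants, and a few passed. The 26 measured were cytokine, NF-kappa-B, C/EBP and STAT3 genes, together with targets of these signals such as Serpina3n. Of the 26, 4 rose and 0 fell in mutants against wild type, where 2.96% of all genes rose and 6.69% fell. Means were higher for 23 of the 26, against 51.4% of all genes, and the median log2 difference was 0.23, against 0.00 over all genes. The 4 called genes were Serpina3n, 4.02-fold higher (adjusted p = 7.5e-05), the cytokine gene Tnf, 1.37-fold, and the NF-kappa-B cofactor genes Nfkbiz, 1.36-fold, and Bcl3, 1.28-fold higher. Serpina3n stood at 8.51, 9.04, 9.08 and 8.41 in mutants, 7.84, 7.26, 8.14 and 7.60 in heterozygotes and 6.90, 6.84, 6.48 and 6.80 in wild-type mice, so that, as for Lcn2, the 3 genotypes did not overlap. The C/EBP genes Cebpb and Cebpd (log2 difference 0.42 and 0.22) and Stat3 (0.15) did not pass (adjusted p = 0.0529, 0.101 and 0.339). Cebpb was called without mutant replicate 4, and Cebpd without mutant replicate 1.

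The call of Tnf ended without mutant replicate 2 or wild type replicate 2 or 4, and without mutant replicate 1 or 4 the list held 7 called genes. Against heterozygotes, Serpina3n alone was called (2.07-fold higher, adjusted p = 0.0104), where 1.07% of all genes rose. Between heterozygotes and wild type none of the 26 was called by limma, where 0.0652% of all genes rose, and 5 were higher at an unadjusted p under 0.05. Single arrays stood out in other members, named here after their values were seen. The interleukin gene Il1b was at 10.11 in mutant replicate 2 and 6.32 to 6.52 in the other mutants, against 6.48 to 7.13 in heterozygotes and 6.47 to 6.66 in wild-type mice. The acute-phase gene Saa3 was at 10.04 in mutant replicate 2 and 5.32 to 5.36 in the other mutants, against 8.24 in heterozygote replicate 4, 5.28 to 5.43 in the other heterozygotes and 5.17 to 5.27 in wild-type mice.

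Of 24 measured genes that receive Lcn2 or handle iron, 2 rose and 2 fell in mutants against wild type, where 2.96% of all genes rose and 6.69% fell. The median log2 difference was 0.03 and 13 of the 24 were higher, against 0.00 and 51.4% over all genes. The iron regulator gene Hfe rose by 0.26 and the ferritin light chain gene Ftl1 by 0.29 on the log2 scale, while the metal transporter gene Slc39a8 was 1.36-fold and the endocytic receptor gene Cubn 1.28-fold lower. The call of Ftl1 ended without mutant replicate 2 or 4, heterozygote replicate 3 or 4 or wild type replicate 2, 3 or 4. The receptors of Lcn2 itself, Slc22a17 and the endocytic receptor megalin (Lrp2), did not pass (log2 difference 0.01 and -0.24, adjusted p = 0.953 and 0.177). Lrp2 stood at 12.23 in mutant replicate 3 and 12.75 to 12.88 in the other mutants, against 12.88 to 12.94 in heterozygotes and 12.87 to 12.93 in wild-type mice.

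Among 35 other injury and repair genes measured, 8 rose and 2 fell in mutants against wild type, where 2.96% of all genes rose and 6.69% fell. Means were higher for 25 of the 35, against 51.4% of all genes, and the median log2 difference was 0.23, against 0.00. Each of these changes was smaller than those of both markers. The largest rises were those of the matrix protease gene Mmp7, 1.67-fold, Cd44, 1.48-fold, the actin-binding gene Tmsb10, 1.39-fold, and the keratin gene Krt18, 1.34-fold, and the matrix genes Tnc and Ccn2 fell 1.45-fold and 1.41-fold. Mmp7 stood at 7.07, 7.82 and 7.51 in mutant replicates 2 to 4 and lowest, at 7.005, in mutant replicate 1, against 6.50 to 6.81 in heterozygotes and 6.57 to 6.64 in wild-type mice, with no overlap. Without mutant replicate 2 or wild type replicate 2 the list held 4 called genes, without mutant replicate 3 it held 6, and without wild type replicate 3 or 4 it held 2. The call of Tnc ended without mutant replicate 2 or wild type replicate 3 or 4, and that of Ccn2 without mutant replicate 1, 2 or 3, heterozygote replicate 3 or any 1 wild-type array.

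Timp1 and Krt20, high on 2 arrays and 1 array, did not pass and were named after their values were seen. The protease inhibitor gene Timp1 was at 7.78 and 6.70 in mutant replicates 2 and 3 and 5.62 and 5.88 in mutant replicates 1 and 4, against 5.73 to 5.87 in heterozygotes and 5.49 to 5.61 in wild-type mice (adjusted p = 0.0923), and it was called without mutant replicate 1 or 4. The keratin gene Krt20 was at 8.07 in mutant replicate 3 and 6.04 to 6.60 in the other mutants, against 5.74 to 5.94 in heterozygotes and 5.71 to 5.95 in wild-type mice (adjusted p = 0.107), and it was called without mutant replicate 3. The mean over the list was 8.41, 8.73, 8.85 and 8.54 in mutant replicates 1 to 4, against 8.39 to 8.52 in heterozygotes and 8.39 to 8.45 in wild-type mice, so mutant replicate 1, high in Havcr1, was within the control range. In mutants against heterozygotes 2 of the 35 rose, Mmp7 and the calcium-binding gene S100a6, where 1.07% of all genes rose. Between heterozygotes and wild type none was called, where 0.135% of all genes were called.

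**Figure D4:**
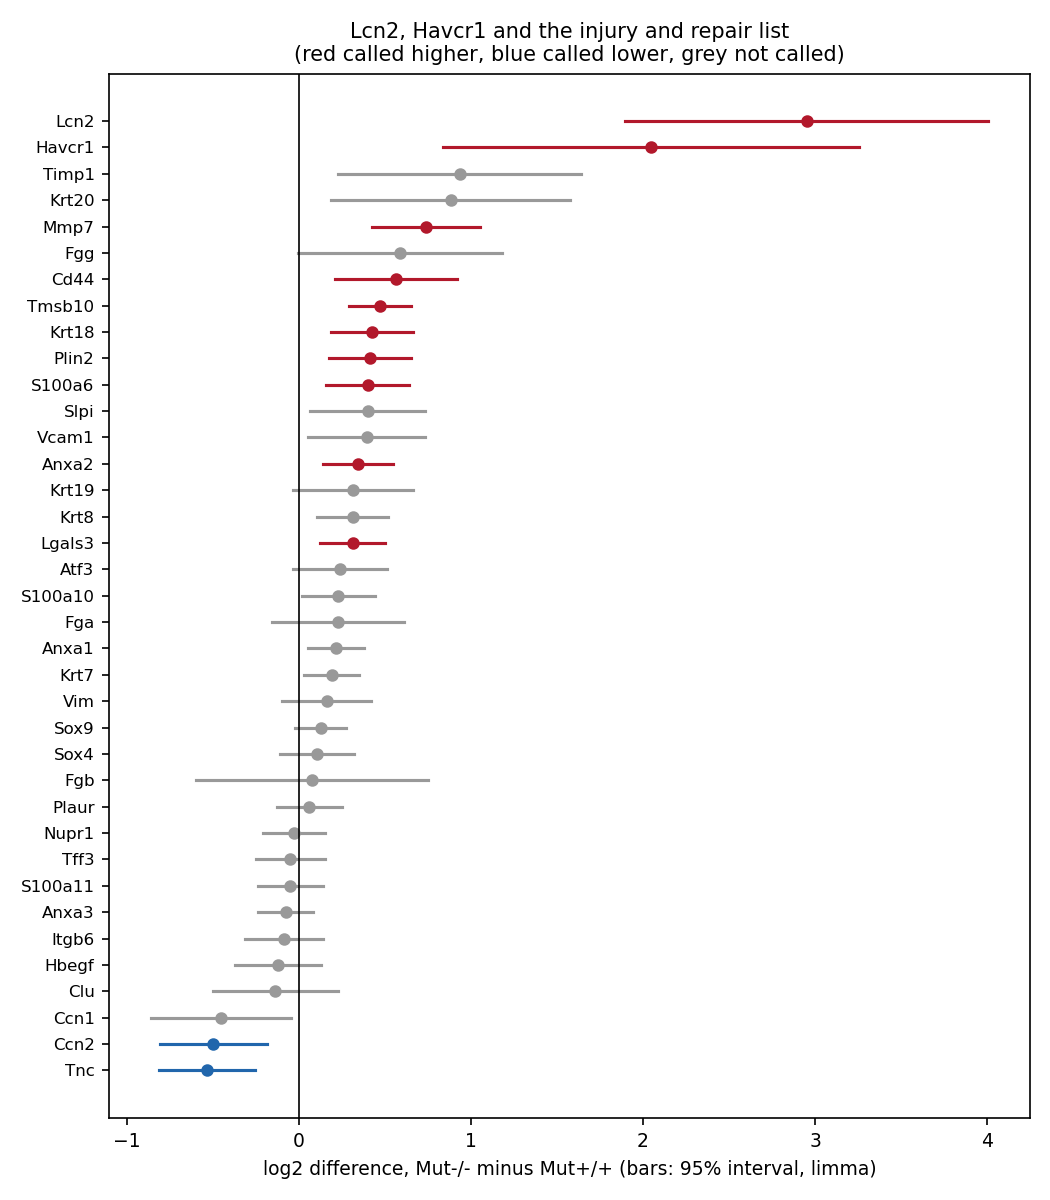
Log2 difference of mutants minus wild type with its 95% interval (limma) for Lcn2, Havcr1 and the 35 other injury and repair genes, red where called higher, blue where called lower and grey where not called. The difference is 2.95 for Lcn2 and 2.05 for Havcr1, and 8 others are red and 2 blue.

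Of 21 measured genes known to decline in injured kidney, 0 rose and 4 fell in mutants against wild type, where 2.96% of all genes rose and 6.69% fell. Means were higher for 7 of the 21, 2 of them at an unadjusted p under 0.05, and the median log2 difference was -0.09. The called genes were the organic anion transporter gene Slc22a7, 2.87-fold lower, the calcium-binding gene Calb1, 2.02-fold, Cubn, 1.28-fold, and the salt cotransporter gene Slc12a3, 1.27-fold lower. Slc22a7 stood at 9.66, 9.35, 7.68 and 8.94 in mutants, against 9.69 to 10.25 in heterozygotes and 9.99 to 10.63 in wild-type mice. Its lowest array, mutant replicate 3, was the one highest in both markers. The call of Calb1 ended without wild type replicate 3 or 4. All 4 called genes also belong to other lists, so their falls are counted more than once. Slc22a7 is also a late proximal marker, and Cubn an early proximal marker and an iron gene. Calb1 and Slc12a3 are also distal tubule markers.

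Of 8 markers of the late proximal tubule (S3), where Havcr1 is known to appear after injury, 6 fell in mutants against wild type and 0 rose. In this comparison 6.69% of all genes fell and 2.96% rose. The median log2 difference was -0.47, and Slc22a7, Serpina1f, Acy3 and Slc22a13 had the largest called changes. The 1 member with a higher mean, Slc7a13, stood at 6.95, 6.60, 5.90 and 5.95 in mutants. It ran from 6.00 to 6.21 in heterozygotes and from 5.70 to 6.03 in wild-type mice. The call of Serpina1f ended without mutant replicate 1 or 3 or wild type replicate 2, 3 or 4, and that of Slc22a13 without wild type replicate 2 or 4, where the list held 4 called genes. Of 8 early proximal markers, Cubn fell, and 0 rose. Of 8 distal convoluted and connecting tubule markers 4 fell (median -0.43), the sodium-calcium exchanger gene Slc8a1 2.07-fold, Calb1 2.02-fold, the magnesium channel gene Trpm6 1.43-fold and Slc12a3 1.27-fold, and without wild type replicate 2, 3 or 4 the list held 2, 2 and 1 called genes. The call of Slc8a1 ended without mutant replicate 2 or wild type replicate 2, 3 or 4, and that of Trpm6 without mutant replicate 3 or wild type replicate 1, 2 or 4. Of 8 thick limb markers none was called by limma, 3 being lower at an unadjusted p under 0.05, the prostaglandin receptor gene Ptger3 coming nearest (log2 difference -0.53, adjusted p = 0.0697, and called without mutant replicate 1 or wild type replicate 1).

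Markers of the collecting duct and its intercalated cells, where injured kidney also makes Lcn2, changed in both directions. Of all genes 2.96% rose and 6.69% fell. Of 8 principal cell markers the water channel gene Aqp3 rose 1.23-fold and Aqp4 fell 1.49-fold, the call of Aqp4 ending without mutant replicate 3 or 4, heterozygote replicate 1 or 2 or any 1 wild-type array. Of 8 intercalated cell markers Aqp6 rose 1.29-fold, and the pendrin gene Slc26a4 and the proton pump subunit gene Atp6v0d2 fell 1.57-fold and 1.18-fold. The call of Atp6v0d2 ended without mutant replicate 2, 3 or 4, heterozygote replicate 3 or 4 or wild type replicate 2, 3 or 4. None of the segment markers was called between heterozygotes and wild type, where 0.135% of all genes were called.

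Markers of neutrophils, which carry stored Lcn2, were high on 1 array. Of 13 neutrophil markers 0 were called in mutants against wild type by limma (0 at an unadjusted p under 0.05), where 9.66% of all genes were called. Means were higher for 12 of the 13 (median log2 difference 0.10), against 51.4% of all genes. The mean level of the 13 markers was 5.83, 6.88, 6.02 and 5.88 in mutant replicates 1 to 4, against 5.85 to 6.03 in heterozygotes and 5.79 to 5.96 in wild-type mice. The calprotectin gene S100a8 stood at 8.57 in mutant replicate 2 and 5.12 to 5.56 in the other mutants, against 5.25 to 5.57 in heterozygotes and 5.25 to 5.49 in wild-type mice. S100a9 was at 9.38 in that mutant and 6.81 to 7.05 in the others, against 6.72 to 6.95 in heterozygotes and 6.69 to 6.90 in wild-type mice.

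In the same mutant the resistin-family gene Retnlg was at 8.20 (other mutants 5.40 to 5.72), the chemokine receptor gene Cxcr2 at 6.68 (5.06 to 5.35) and the haptoglobin gene Hp, named after its values were seen, at 9.82 (6.92 to 7.14). The granule genes that developing neutrophils transcribe were near the other arrays there, Ngp at 6.20, Ltf at 6.04, Camp at 6.63, Mpo at 6.28 and Elane at 6.69. Mutant replicate 3, with Lcn2 as high as in replicate 2, had S100a8 at 5.56 and a marker mean within the heterozygote range. Without mutant replicate 2, Lcn2 was called in mutants against wild type (log2 difference 2.58, adjusted p = 0.00616), and without mutant replicate 3 likewise (2.56, adjusted p = 0.00529). What part neutrophils have in the Lcn2 level of mutant replicate 2 was not tested.

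B cells, some of which carry Havcr1, differed between arrays in their markers, which were highest in the heterozygotes highest in Havcr1 but not in the mutant highest in it. The mean of 6 B cell markers was 6.99 and 6.76 in heterozygote replicates 3 and 4 and 6.16 and 6.29 in heterozygote replicates 1 and 2. It was 6.67, 6.26, 6.24 and 6.63 in mutant replicates 1 to 4, against 6.08 to 6.27 in wild-type mice. Cd79a, a part of the B cell receptor, stood at 6.35, 5.63, 5.35 and 6.01 in mutants, 4.93, 5.41, 6.63 and 6.42 in heterozygotes and 5.09 to 5.42 in wild-type mice, so mutant replicate 3, with the highest Havcr1, had Cd79a at wild-type level.

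None of the 6 was called in mutants against wild type by limma, with 0 at an unadjusted p under 0.05, where 9.66% of all genes were called. Means were higher for all 6 (median log2 difference 0.27), against 51.4% of all genes. Between heterozygotes and wild type, where 0.135% of all genes were called, none was called either, with 2 higher at an unadjusted p under 0.05. Of 9 T cell markers none was called in mutants against wild type by limma, with 1 higher at an unadjusted p under 0.05. Means were higher for 7 of the 9, against 51.4% of all genes. The mean over the list was 6.32 to 6.62 in mutants, 6.29 to 6.64 in heterozygotes and 6.29 to 6.42 in wild-type mice. Cd5 had the smallest p (log2 difference 0.16, limma adjusted p = 0.11). What part B cells have in the Havcr1 values of heterozygote replicates 3 and 4 was not tested.

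**Figure D5:**
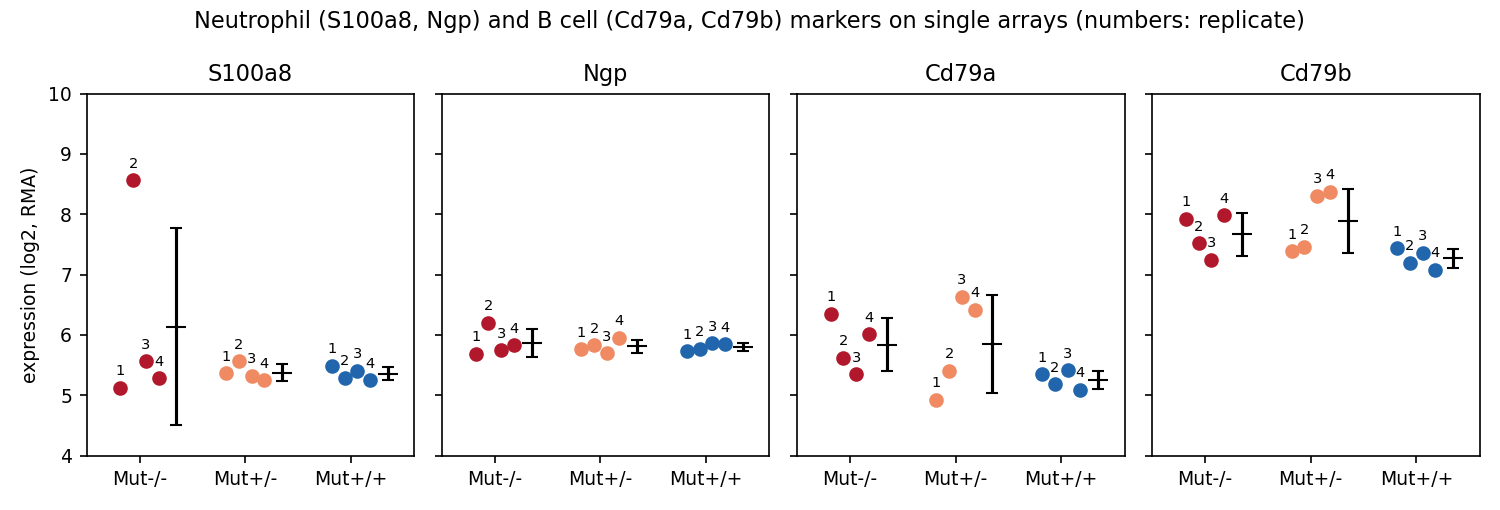
Expression (log2, RMA) of the neutrophil markers S100a8 and Ngp and the B cell markers Cd79a and Cd79b on each array, numbered by replicate, with the mean and SD of each genotype as bars. S100a8 is at 8.57 in mutant replicate 2 alone, and Cd79a is at 6.63 and 6.42 in heterozygote replicates 3 and 4.

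Of 11 macrophage markers 2 rose and 1 fell in mutants against wild type, where 2.96% of all genes rose and 6.69% fell. Means were higher for 10 of the 11, against 51.4% of all genes. The lysozyme gene Lyz2 was 2.40-fold and Cd68 1.57-fold higher, and the growth factor receptor gene Csf1r was 1.55-fold lower. Lyz2 stood at 9.34, 10.62, 9.56 and 10.67 in mutants, 8.70, 9.40, 9.72 and 10.21 in heterozygotes and 8.52 to 9.06 in wild-type mice. The macrophage surface gene Adgre1 was not called (log2 difference 0.06, adjusted p = 0.905), and the mean over the list was 7.56, 8.34, 7.78 and 8.15 in mutants, against 7.59 to 8.10 in heterozygotes and 7.52 to 7.74 in wild-type mice. Without mutant replicate 2 or 4 or wild type replicate 3 the list held 1 called gene, and without wild type replicate 2 or 4 it held 0. The call of Csf1r ended without wild type replicate 2 or 4, and that of Lyz2 without mutant replicate 2 or 4 or wild type replicate 2, 3 or 4. What part macrophages have in the levels of Lcn2 was not tested.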

How the data were processed

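Labelled RNA of 12 kidneys was read on Affymetrix gene arrays, 4 per genotype by the sample titles. The deposited values are log2 expression by probe set, which the authors made with RMA. The submitters' processing notes name Affymetrix Expression Console, version 1.2.1, as the program. The labels' text on labelling names a human array and the sample descriptions a mouse array, and the probe sets were those of the mouse array. Of 35552 probe sets 21785 had 1 gene symbol, 1621 several and 12146 none in the annotation used, and 21694 of the single symbols matched RefSeq names by gene identifier. The brightest probe set over the 12 arrays stood for each of 19934 genes. A sentence on a level is on the log2 scale.

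All 12 arrays entered 1 fit of 3 groups with limma 3.58.1 in R 4.3.3 (lmFit, eBayes), with Benjamini-Hochberg adjustment over all genes of a comparison and a call at an adjusted p under 0.05. The fit was checked on simulated data. Nothing says that the samples were of separate litters, so p-values measure the spread between these samples, and with 4 arrays per genotype their precision is low. No batch is given in the labels. Replicate numbers shared by the genotypes do not pair the mice in the labels, and no block was used. Permutation tests over arrays were exact and two-sided.

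The members and all gene lists were chosen with earlier results of these data known. Besides the members, the text names the 8 genes with the highest and the 5 with the lowest r with each marker, the 5 with the highest r of deviations, in each list the called members with the largest changes (at most 4) or else the one with the smallest p, and neutrophil markers. Some genes outside these rules are named as well, such as Tmsb10, Krt18 and S100a6 of the injury list. Predicted gene models and similar entries were not named. Of the listed genes 206 were measured, and 7 entries were not matched. Alternatives were a block, each array left out, a filter on low values, the mean of the probe sets, array weights, another variance prior, fewer groups, centring, quantile normalization and pooled controls.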

Additional observations from a re-analysis of the deposited data

Results flagged for a closer look

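In 288 groups of 4 arrays, from 96 genes, most of them named in the text, the highest or lowest array was set against the nearest other. Some named genes, Scarb1, Tmsb10, Krt18 and S100a6 among them, were not in this check. Of the groups checked, 23 had an array that stood apart by more than the critical value of Dixon's test. Chance gives about 1 in 20 for genes chosen without sight of their values. Saa3, Il1b, Hp, Timp1 and Krt20, among others, entered the check after their values were seen. The share flagged can therefore not be set against chance. The members were not among them. Mutant replicate 2 was the highest of its group in S100a8 (8.57), S100a9 (9.38), Retnlg (8.20), Il1b (10.11), Saa3 (10.04) and Hp (9.82), with the other mutants between 5.12 and 7.14 in these genes. Saa3 was also high in heterozygote replicate 4 (8.24).

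Mutant replicate 3, the array highest in Lcn2 and Havcr1, was the lowest of its group in Slc22a13 (10.54) and Slc26a4 (8.72). Among heterozygotes, replicate 1 was highest in Atp6v0d2 (9.76) and lowest in Serpina1f (11.16), replicate 3 lowest in Cebpd (7.21) and Csf3r (6.20), and replicate 4 lowest in Tnf (6.27).

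Among wild-type mice, replicate 1 was highest in Cd5 (6.90) and Ephx1 (10.01) and lowest in Cebpd (6.69), Slc8a1 (9.71) and Timd2 (5.43). Replicate 2 was lowest in D17H6S56E-5 (7.31), replicate 3 in Slc22a7 (9.99), and replicate 4 in Cbr3 (6.31) and Hfe (7.83).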

How the results depend on the processing

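Under the alternatives Lcn2 in mutants against wild type kept its call throughout (log2 difference 2.56 to 3.56 with single arrays left out). Havcr1 in that comparison lost it with array weights (1.86, adjusted p = 0.0923), a trended and robust prior (2.05, adjusted p = 0.0940), pooled controls (1.44, adjusted p = 0.0871) and without single arrays (1.71 to 2.34). Lcn2 in mutants against heterozygotes lost it with the trended prior (2.21, adjusted p = 0.0898), with only these genotypes in the fit (2.21, adjusted p = 0.123) and without single arrays (1.82 to 2.81). Lcn2 in heterozygotes against wild type was called with only these genotypes in the fit (0.744, adjusted p = 0.0201). The difference of the markers in heterozygotes against wild type ran from -1.002 to 0.0479 without single arrays, changing sign without heterozygote replicate 3. Called genes in mutants against wild type numbered 1925, with only these genotypes in the fit 1154, and 1019 to 1928 without single arrays. In mutants against heterozygotes they numbered 506, against 191 and 229 to 592. In heterozygotes against wild type they numbered 27, against 7 with the replicate block, 163 with array weights, 42 with the trended prior, 78 with only these genotypes and 5 to 67 without single arrays. Beyond the fewer samples or genotypes in the fit, the cause was not tested.

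With the replicate number as a block, Lcn2 was called in mutants against wild type (adjusted p = 0.00696) and against heterozygotes (adjusted p = 0.0499), and Havcr1 in mutants against wild type (adjusted p = 0.0278). Same-numbered arrays correlated in their deviations at -0.239 to 0.168. Whether same-numbered mice shared a litter or handling was not tested. Leaving out single arrays, added after the values were seen, ended the calls of 18 of 53 other genes checked (adjusted p up to 0.126). The called genes Tmsb10, Krt18 and S100a6 were not among those checked.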
